A study of Mus musculus with 7 samples.

Results

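The transcripts described here are the 238 rows of the expression table that the authors assigned to the category TEC (212 rows) or sense_intronic (26 rows) and that were selected on their level, a mean normalized count over the 7 libraries of at least 10. The whole table holds 16476 rows, of which 668 carry 1 of these categories at any level (595 TEC and 73 sense_intronic). RNA came from cells washed out of the airways of C57BL/6 mice (bronchoalveolar lavage, BAL), collected 3 days after lipopolysaccharide, a component of bacterial outer membranes, had been instilled into the trachea, and stripped of neutrophils with antibodies. The 4 control libraries came from mice with the Cre recombinase at the lysozyme M locus (genotype LysM Cre), and the 3 knockout libraries from mice that carried the same Cre and floxed alleles of Ntn1, the gene for netrin-1 (Netrin1loxp/loxp LysM Cre). By these genotypes both groups carry the Cre insertion, and both share the lipopolysaccharide and the neutrophil depletion. The labels do not give the number of Cre copies per mouse. LysM Cre recombines mainly in cells of the myeloid lineage, so other cells of the lavage may keep intact Ntn1 alleles in the knockouts. These counts do not show which cells recombined. The labels give neither the ages of the mice nor the number of mice behind a library, so the p-values below cover the variation among libraries, some of which may be technical.

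TEC is the annotators' tag for a transcript that still awaits an experiment: it marks a stretch of genome where clustered cDNA fragments point to a transcript that is not yet established as a gene. A sense intronic transcript lies in an intron of a protein-coding gene, on the same strand, and shares no bases with the exons of that gene. Introns are part of every pre-mRNA and are normally spliced out and degraded in the nucleus, whereas most finished mRNAs end a short distance past a hexamer such as AATAAA, where the cleavage machinery cuts and a poly(A) tail is added. A read counted for a row inside an intron can therefore come from a transcript of its own or from the pre-mRNA of the gene around it (the host), and these counts do not tell the sources apart.

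The 3′ ends of 11 members are shown first, so that the ends of such rows can be seen beside their values. Each line is the last 100 bases of the annotated transcript, 5′ to 3′ (GENCODE M21, GRCm38), in lower case, with AATAAA in capitals where a search of the last 50 bases found it. The first 5 are from the intronic members whose change differed from that of the host gene with the smallest p. Their windows are chr17:51757295-51757394 on the minus strand (host Satb1), chr1:131086252-131086351 on the minus strand (Mapkapk2), chr6:72106714-72106813 on the plus strand (St3gal5), chr1:180364899-180364998 on the plus strand (Itpkb) and chr9:37499813-37499912 on the plus strand (Msantd2).
C230085N15Rik: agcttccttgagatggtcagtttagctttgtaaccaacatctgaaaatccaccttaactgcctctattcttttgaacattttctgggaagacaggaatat
Gm37084: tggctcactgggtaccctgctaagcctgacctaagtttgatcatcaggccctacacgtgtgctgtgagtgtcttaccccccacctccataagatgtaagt
Gm29438: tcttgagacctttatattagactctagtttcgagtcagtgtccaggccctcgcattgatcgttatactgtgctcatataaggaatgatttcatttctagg
Gm37033: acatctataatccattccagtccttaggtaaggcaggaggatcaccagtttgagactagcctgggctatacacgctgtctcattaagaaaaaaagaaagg
AC105958.1: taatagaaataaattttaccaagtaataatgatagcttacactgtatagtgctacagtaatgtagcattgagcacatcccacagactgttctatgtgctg
Next come Gm44667 in Mef2a (chr7:67268906-67269005 on the minus strand) and Gm42664 in Ptbp2 (chr3:119743208-119743307 on the minus strand), a TEC and a sense_intronic member that are abundant in controls.
Gm44667: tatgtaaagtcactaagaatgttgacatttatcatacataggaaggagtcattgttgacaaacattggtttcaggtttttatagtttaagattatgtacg
Gm42664: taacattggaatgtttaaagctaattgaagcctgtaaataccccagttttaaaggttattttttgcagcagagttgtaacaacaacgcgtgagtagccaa
Gm43328 in Rap1a (chr3:105732444-105732543 on the minus strand) and Gm38190 in Tiprl (chr1:165230371-165230470 on the minus strand) are sense_intronic members whose own change between the groups did not pass the test.
Gm43328: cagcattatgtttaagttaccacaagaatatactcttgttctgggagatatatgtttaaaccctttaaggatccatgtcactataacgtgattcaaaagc
Gm38190: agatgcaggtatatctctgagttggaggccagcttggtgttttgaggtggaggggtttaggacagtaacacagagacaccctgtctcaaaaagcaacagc
The last pair are abundant intronic members that did not pass the test for a difference, Gm37691 in Lamb3 (chr1:193283744-193283843 on the plus strand) and Peg13 in Trappc9 (chr15:72805600-72805699 on the minus strand).
Gm37691: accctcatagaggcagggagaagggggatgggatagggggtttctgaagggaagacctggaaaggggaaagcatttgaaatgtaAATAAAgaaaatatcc
Peg13: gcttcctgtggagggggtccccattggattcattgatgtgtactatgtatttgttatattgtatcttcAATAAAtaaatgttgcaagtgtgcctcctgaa
Neither AATAAA nor ATTAAA was found in the last 50 bases of the first 9, while AATAAA starts 16 bases from the end of Gm37691 and 32 bases from the end of Peg13. A match is a description of letters and no proof of a cleavage site, and its absence says only that these letters are not in the window.

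Most members are short, unspliced and rare. Of the 236 members found in GENCODE M21 (Gm37874 and Gm45884 were not), 225 have 1 exon, and the median annotated length is 2343.5 bases (range 368 to 30942), against a median of 4499.5 bases of summed exons for the protein-coding rows tested. The mean normalized count ran from 10.02 to 910.9 with a median of 20.18, and 1 read is worth between 0.885 and 1.254 normalized counts depending on the library. By place, 128 members lay inside a protein-coding gene on the same strand without touching its exons (intronic), 12 shared bases with an exon of such a gene (11 wholly inside it), 32 had at least 50% of their length inside a gene on the opposite strand (27 of them wholly), 15 began within 5000 bases past the end of a same-strand gene, and 49 lay elsewhere. The host genes of intronic members spanned a median of 47140 bases, against 24129.5 for all protein-coding genes tested. The members sat at a median of 55.35% along the host, with 32 in the first 25% of its span and 42 in the last 25%. The strand setting of the authors' counting is not known here, so rows on opposite strands of a gene, and rows that share its exon bases, are uncertain.

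Between 9903284 and 13353733 reads per library stood behind the normalized counts. Ntn1 itself had 1, 4, 9 and 3 reads in control replicates 1 to 4 and 1, 0 and 1 in the knockouts, too few to check the labels. Lyz2, the gene at the Cre locus, had 75743 and 94725 reads in control replicates 1 and 4. The other 5 libraries had 787 to 1094. Whether the libraries differ in copies of the Cre insertion was not tested, so Cre may not be matched between the groups. Counts are therefore also given without control replicates 1 and 4. The summed level of 8 alveolar macrophage markers, the defining cells of the lavage, was 52322 to 84102 normalized counts in controls and 70685 to 113040 in knockouts, and none of the 8 was at 0 in any library. The other marker lists differed in how far they moved with the genotype. By the test described below, 11.3% of all rows tested were lower and 10.4% higher. All 8 natural killer cell markers rose (sums 5423.5 to 9683.5 in controls, 30815 to 35550 in knockouts), as did 6 of 7 epithelial markers (178.77 to 233.86, then 546.54 to 877.11) and 3 of 8 neutrophil markers (13147 to 16757, then 19629 to 62438). Of 8 recruited macrophage markers 4 fell and 1 rose, with sums that overlapped (18627 to 29257, then 12641 to 19799). Of 6 T cell markers 1 rose, with a median log2 fold change of -0.02 and sums that overlapped (3895.7 to 4876.6, then 3964 to 5766). No marker of these lists was at 0 in any library. Knockout replicate 1 stood apart, with the 62438 of the neutrophil markers against 19629 and 21203 in the other knockouts. It also had 124060 normalized counts over 5 erythroid markers, 2 of which were at 0 in a library, against 1170 to 24673 in the other 6 libraries. The part of these lists in the results on the members was not tested. In bulk RNA, fewer cells of a type and less RNA per cell cannot be told apart.

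The members together took a smaller share of the reads in every knockout library than in any control library. They held 0.0769%, 0.1109%, 0.1001% and 0.09415% of all reads in controls (replicates 1 to 4) and 0.05099%, 0.05727% and 0.07208% in knockouts (replicates 1 to 3). The means were 0.0955% ± 0.0142 (SD, n = 4) and 0.0601% ± 0.0108 (SD, n = 3), a ratio of 1.59 that became 1.56 without the most abundant member. The lowest control (replicate 1) and the highest knockout (replicate 3) came close to each other, and the groups did not overlap. For the intronic members alone the ratio was 1.69, against 1.10 for the 278 lincRNA rows, 1.07 for the 202 antisense rows and 1.04 for the 143 processed transcripts tested. No p is given for these sums, since the rows were chosen with results of these data known.

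**Figure D1:**
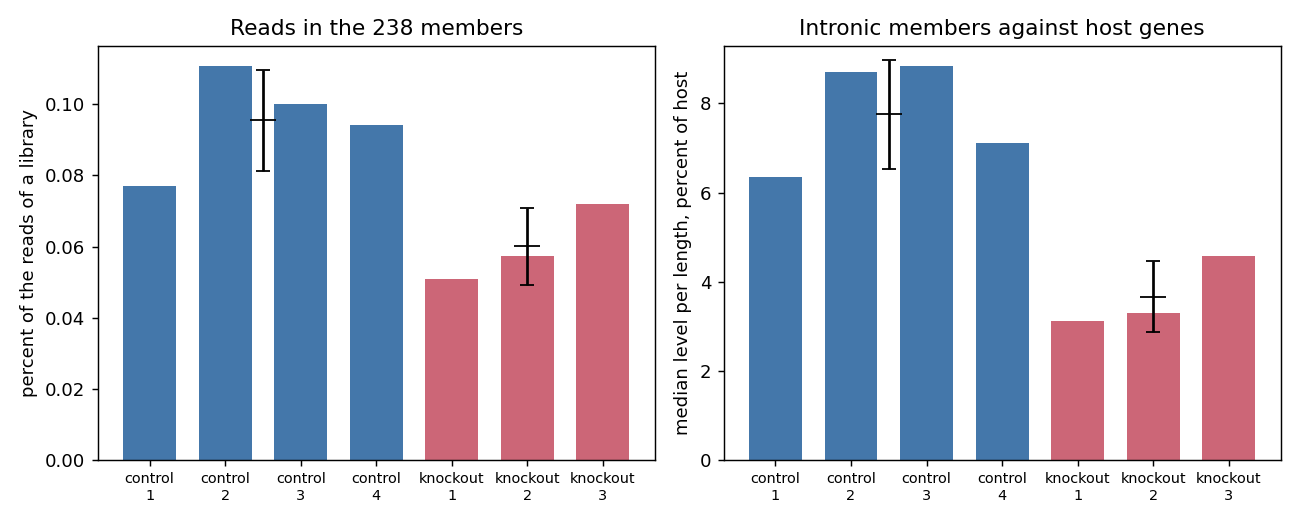
Left, percent of the reads of each library that fell in the 238 members; right, the median over 126 intronic members of the level per base as a percent of the level per base of the host gene. Bars are libraries, and the crosses with error bars are group means ± SD (4 control and 3 knockout libraries). In both panels every knockout bar is below every control bar, and members admitted through the controls alone are included.

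Row by row, far more members fell than rose. By limma on log2(normalized count + 1) with Benjamini-Hochberg adjustment over all 12963 rows with a mean of at least 10, 86 of the 238 members were lower in knockouts (36.1%, against 11.3% of all rows tested) and 6 were higher (2.52%, against 10.4%). The control and knockout libraries did not overlap for 105 members on the lower side (16.3% of all rows tested are of that kind) and 6 on the higher side (17.4%). The median log2 fold change of the members was -0.90 (quartiles -1.43 and -0.41, 208 of 238 below 0), beside 0.01 over all rows. TEC members (76 lower and 6 higher of 212, median -0.90) and sense_intronic members (10 lower of 26, median -0.91) had medians that were close. The authors' deposited table, with the authors' own adjusted p under 0.05, marks 92 of the 238 members lower and 5 higher. Of all its rows with an adjusted p it marks 9.92% lower and 8.92% higher. The authors' median log2 fold change of the members was -0.44. The authors' notes name DESeq2, so this median and the limma median of -0.90 are unlike measures. The count of 86 was 43 without control replicate 2, 55 without control replicate 4, 52 without knockout replicate 2, and 51 without both control replicates 1 and 4. Calls over all rows dropped too, from 1461 lower rows to 913, 904, 820 and 567 in the same order. Over those settings the count of higher members was 3, 4, 2 and 3, and it was 3 without knockout replicate 3. Without knockout replicate 1, 66 members were lower and 5 higher.

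Properties of the rule bear on these counts. A minimum on the mean admits some rows through 1 group only: 78 members reached 10 in the controls but not in the knockouts, and 3 the reverse. Of the 157 that reached 10 in both groups, 44 were lower and 4 higher, with a median of -0.62. The 430 TEC and sense_intronic rows under the minimum had a median of -0.98 in a fit without a minimum, and 383 of them were below 0. Protein-coding rows of like level had no such median: 941 of them within the interquartile range of the members' means (13.97 to 34.93) had 57 lower, 65 higher and a median of 0.10. Within the members, the 119 at or above the median level (51 lower, 4 higher, median -0.86) and the 119 below it (35 lower, 2 higher, median -0.91) had close medians.

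The members are described next by their place. Of the 128 intronic members 55 were lower and 1 higher, with a median log2 fold change of -1.08. The 12 that share exon bases had 7 lower, 1 higher and a median of -0.96. On the opposite strand of a gene, 9 of 32 were lower and 1 higher (median -0.76). Just past the end of a gene, 1 of 15 was lower and 1 higher (median -0.41), and elsewhere 13 of 49 were lower and 2 higher (median -0.46). Other classes of long non-coding RNA had smaller medians than the members, namely -0.18 for lincRNA (49 lower and 13 higher of 278), -0.30 for antisense rows (44 and 10 of 202) and -0.07 for processed transcripts (18 and 7 of 143). Among the members that reached 10 in both groups the intronic median was -0.82 (29 of 73 lower). With exon bases shared it was -0.94 (5 of 10 lower, 1 higher), and on the opposite strand -0.50 (3 of 21 lower). Just past a gene it was -0.18 (0 of 11 lower, 1 higher), and elsewhere -0.35 (6 of 40 lower, 2 higher). Over all rows tested 11.3% were lower and 10.4% higher. Of all members on the opposite strand 28.1% were lower and 3.12% higher, and of those elsewhere 26.5% and 4.08%. These shares include members admitted through the controls alone. Among members that reached 10 in both groups, the lower counts outside same-strand genes were near or under the share over all rows. Those counts are no result about the places. The difference between places was not tested.

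**Figure D2:**
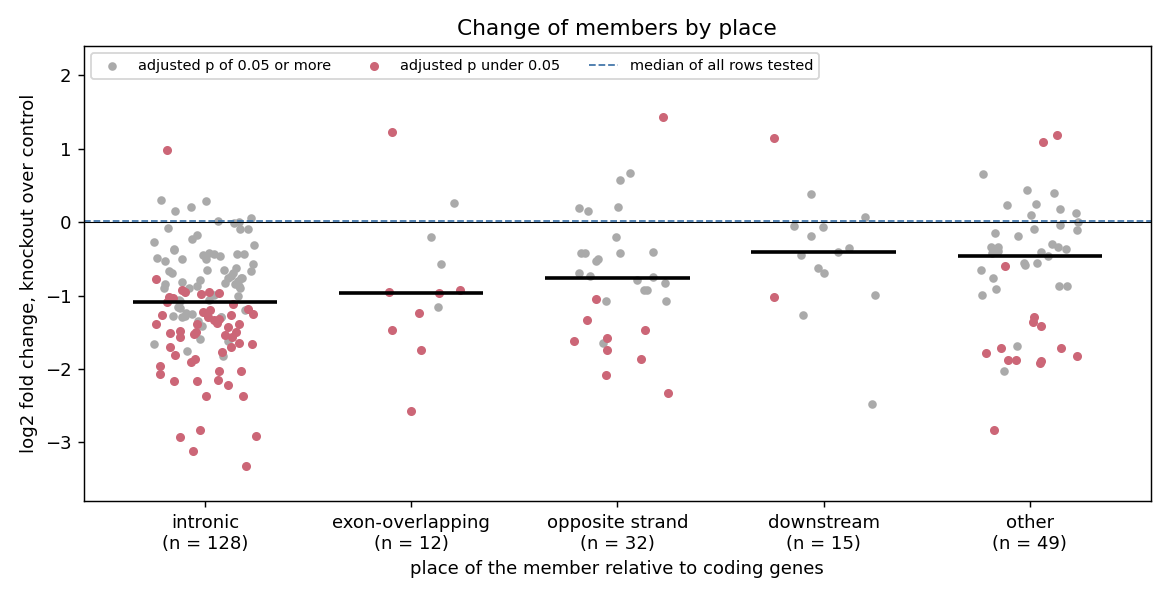
Each point is a member, placed by its position relative to protein-coding genes, with its log2 fold change (knockout over control) on the vertical axis. Red points passed the test (adjusted p under 0.05), thick bars are medians and the dashed line is the median of all rows tested; the intronic median is at -1.08 and that of members just past a gene at -0.41.

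Intronic members were lower while the genes around them, as a group, were not. Their difference from the host was tested by limma on the per-library difference of log2(normalized count + 1) between a row and its host, over 201 pairs of non-coding rows of any category that lie mainly inside a tested same-strand gene. Of the 138 members among them, 90 fell relative to the host and none rose, with adjusted p-values under 0.05, while over all 201 pairs 50.2% fell and 0.995% rose. No member rose relative to its host at an unadjusted p under 0.05 either, and other tools were not run on the pairs. The other 63 pairs (lincRNA, antisense and other categories) had 11 lower, 2 higher and a median of -0.21, against -1.04 for the member pairs. For the 126 intronic pairs alone, on 117 hosts, 84 were lower, 121 were below 0 and the median was -1.05. The members' own median there was -1.07, and that of the hosts was -0.00, with 16 hosts lower and 14 higher. In 44 cases the member fell and its host did not, and in 4 of these the host rose. Members admitted through the controls alone are among these pairs. Of the 83 member pairs whose member reached 10 in both groups, 47 fell, 77 were below 0 and the median was -0.88. The 90 became 59 without knockout replicate 1 and 73 without both control replicates 1 and 4.

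**Figure D3:**
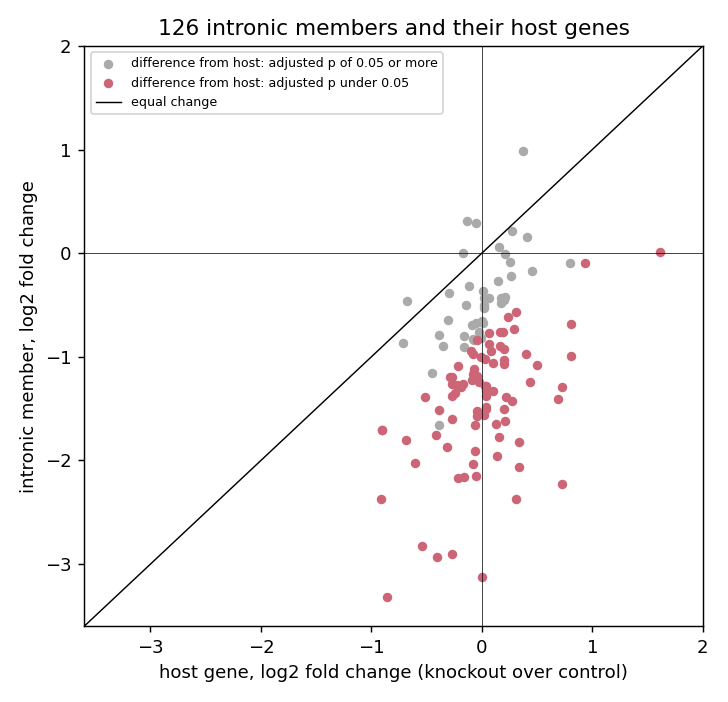
Log2 fold change (knockout over control) of 126 intronic members on the vertical axis against that of the host gene on the horizontal axis; the diagonal marks equal change and red points passed the test of the difference. Of the points, 121 are below the diagonal, while the hosts spread around 0.

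Set against the host per base of exon, the intronic members stood at a median of 6.345%, 8.702%, 8.85% and 7.118% of the host level in controls (replicates 1 to 4) and 3.106%, 3.294% and 4.575% in the knockouts. The group values were 7.75% ± 1.22 (SD, n = 4) and 3.66% ± 0.8 (SD, n = 3), without overlap. Across the 126 pairs the fold changes of member and host had a Pearson correlation of 0.38 and a Spearman correlation of 0.32. That is a description: both values of a pair come from the same 7 libraries, and 16 of the members share 7 hosts.

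C230085N15Rik, Gm37084, Gm29438, AC105958.1 and Gm37033, which follow, had a knockout mean under 10 and so entered through the controls. C230085N15Rik lies in Satb1, which encodes a chromatin organiser of lymphocytes. Its normalized counts were 10.2, 27.4, 23.0 and 18.8 in controls and 1.0, 5.8 and 4.5 in knockouts, so every knockout library was below every control. Satb1 itself went the other way, from 2062 ± 201 (SD, n = 4) to 3421 ± 427 (SD, n = 3), a log2 fold change of 0.73 (limma adjusted p = 0.00284). The member fell by 2.22 on the log2 scale (adjusted p = 0.016) and its difference from Satb1 was -2.95 (SE 0.39, adjusted p = 0.000277). Without control replicate 2 the member's own adjusted p was 0.0505. Gm37084 lies in Mapkapk2, the kinase that acts below p38 in inflammatory signalling. It had 31.5, 48.9, 40.7 and 51.4 normalized counts in controls and 8.1, 8.7 and 11.7 in knockouts, again without overlap. The fold change was -2.06 (SE 0.25, adjusted p = 0.00134), beside 0.34 for Mapkapk2 (adjusted p = 0.068).

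Gm29438 lies in St3gal5, which makes the ganglioside GM3, and its normalized counts of 12.2, 32.3, 19.5 and 21.3 in controls stood against 0, 2.9 and 2.7 in knockouts. No knockout library reached more than 3 reads, so its log2 fold change of -3.12 (adjusted p = 0.00616) depends on the pseudocount. St3gal5 had 918 ± 124 (SD, n = 4) and 915 ± 106 (SD, n = 3), and did not pass the test. AC105958.1 in Msantd2 had 12.2, 24.5, 17.7 and 16.3 in controls and 0, 1.9 and 3.6 in knockouts, while Msantd2 fell by 0.41 (adjusted p = 0.0464). Gm37033, in Itpkb, an inositol phosphate kinase of lymphocyte receptor signalling, went from 22.6 ± 7.05 (SD, n = 4) to 5.04 ± 1.89 (SD, n = 3). The differences of these 3 from their hosts were -3.12, -2.52 and -2.09 in the order named, with adjusted p-values between 0.000537 and 0.00062.

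Several hosts held more than 1 member, and such members are not independent of each other. All 4 members in Picalm, a clathrin adaptor, fell, with log2 fold changes between -1.50 and -1.33, while Picalm was at 8524 ± 604 (SD, n = 4) and 8717 ± 502 (SD, n = 3). The most abundant of them, Gm45221, had 70.1, 165.4, 198.2 and 86.5 in controls and 51.7, 27.9 and 48.8 in knockouts. Both members fell in Notch2, a receptor of cell contact signalling, where the host fell by 0.27 (adjusted p = 0.0406). The same held in Ptbp2, a splicing regulator, whose own fold change was -0.90. In Capza1, an actin capping subunit, both members fell while the host rose by 0.20 (adjusted p = 0.0475). Satb1 held 3 members, of which C230085N15Rik fell and the other 2 did not pass, with fold changes no higher than -1.16. Kansl1l had 1 of 3 lower. Neither member passed in Ptpn22, a phosphatase that restrains lymphocyte receptors (-0.99 and -0.69, host 0.81), nor in Fbxl5 (-0.67 and 0.29).

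Beyond these, the lower members with the smallest p came from every kind of place except just past a gene. By the naming rule, all had groups that did not overlap and a fold change of at least 1 on the log2 scale. Of these, Gm44974, Gm42820, Gm43323, Gm45244, Gm37420, Gm10388 and Gm42868 had a knockout mean under 10 and so entered through the controls. Knockout libraries went down to 1.0 normalized counts in Gm37420 and Gm43323 and 1.9 in Gm44974, so these fold changes rest on few reads. Gm44667, in the transcription factor gene Mef2a, had 54.8, 121.3, 130.1 and 71.5 in controls and 7.1, 9.6 and 22.6 in knockouts. The groups did not overlap, with a log2 fold change of -2.83 (SE 0.42, limma adjusted p = 0.00306), while Mef2a fell by 0.54. Gm45640, in the chromatin remodeller gene Chd9, went from 85.3 ± 7.75 (SD, n = 4) to 24.4 ± 12.2 (SD, n = 3). Gm44974, in the aminopeptidase gene Anpep, fell by 2.37 and Anpep by 0.91. Among the members that share exon bases, Gm38253 (Lrif1) had a fold change of -1.47, Gm42820 (Notch2) of -1.74 and Gm43323 (Rbm47) of -2.57. Gm45244, opposite the fatty acid activating enzyme gene Acsl1, fell by 1.86, and Acsl1 itself by 0.52. Members outside genes were Gm37795 (-1.71), Gm37420 (-2.83), Gm10388 (-1.88) and the sense_intronic row Gm42868 (-1.82), which lies in no coding gene of this annotation. The nearest coding gene to Gm37795, Gpr157 on the same strand 16368 bases away, had a fold change of -1.11 (adjusted p = 0.00292). The genes nearest to the other 3, which lie on the opposite strand, did not pass. They were Kcnrg, 54394 bases from Gm37420 (-0.62), Resf1, 22641 bases from Gm10388 (0.09), and Tent5c, 8105 bases from Gm42868 (-0.50).

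**Figure D4:**
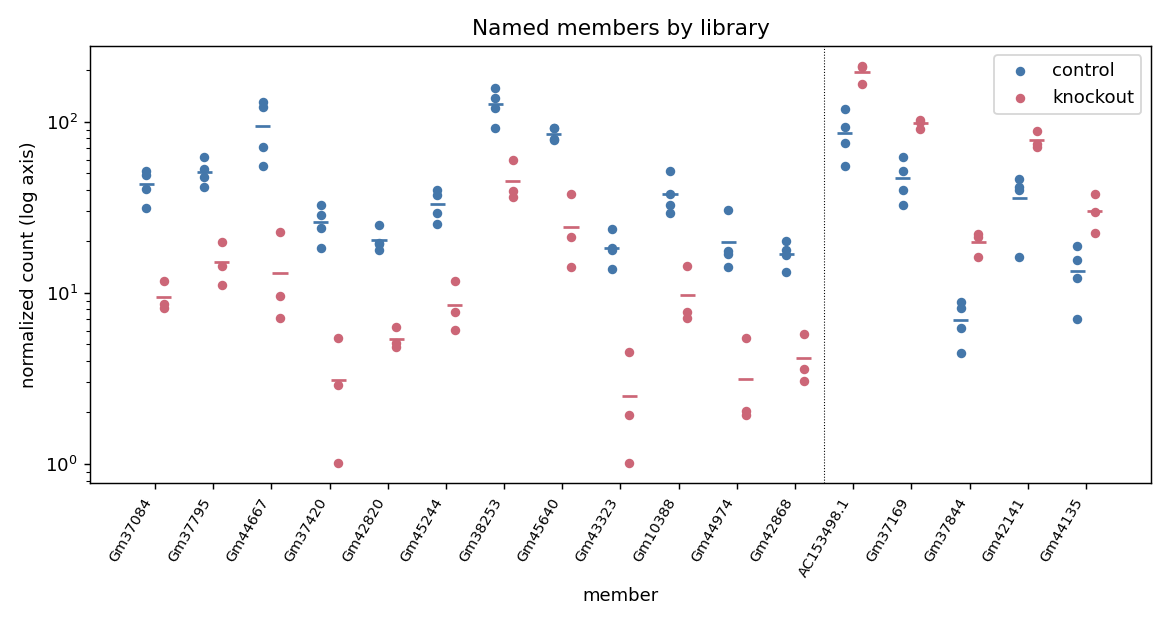
Normalized counts per library (log axis) of the 12 lower and 5 higher members with the smallest p, in controls (blue) and knockouts (red); short bars are group means. The 2 groups are apart in each of the 17 members, since the rule that named them required it.

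Of the 6 members that rose, AC153498.1 and Gm44135 adjoin a named immune gene, which was noticed after their values were seen. AC153498.1 shares exon bases with Ifng, the gene for interferon gamma, and had 54.8, 118.4, 93.8 and 75.2 in controls and 165.3, 212.5 and 207.8 in knockouts. Every knockout library was above every control, and the fold change of 1.23 (limma adjusted p = 0.00909) lay beside 1.47 for Ifng, a difference of -0.24 that did not pass (SE 0.30, adjusted p = 0.516). Reads of Ifng can be counted for this row. Gm44135 begins 733 bases past the end of Klri1, a killer cell receptor gene, and had 12.2, 15.7, 7.1 and 18.8 in controls and 22.3, 29.8 and 37.9 in knockouts. Its fold change of 1.15 (adjusted p = 0.0451) was beside 1.13 for Klri1. The call was lost without control replicate 1, 2 or 3 (0.0805, 0.0708 and 0.0682) and without knockout replicate 2 or 3 (0.117 and 0.132). The natural killer marker sums given above moved in the same direction as these rows, and their part was not tested.

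Gm37169 (1.09, adjusted p = 0.0101) and Gm42141 (1.19, adjusted p = 0.0355) lie outside coding genes. The nearest ones, Naif1 31035 bases away (0.33) and Lrrc8b 5396 bases away (-0.00), did not pass. Gm37844 (1.43, adjusted p = 0.014) lies opposite Kbtbd11, which itself rose by 0.44 (adjusted p = 0.0332). The highest fold change of any member was that of Gm37844, at 8.1, 8.8, 4.4 and 6.3 against 21.3, 22.1 and 16.3. Its controls were all under 10, so it entered through the knockouts. Gm38329 in Rabgap1l (0.98, adjusted p = 0.0485), named after its values were seen, was the other member that rose. Rabgap1l had a fold change of 0.38 and did not pass (adjusted p = 0.0886). Several of these calls were lost when 1 library was left out. The adjusted p of Gm42141 was 0.0612 without control replicate 2, 0.0564 without control replicate 4, and 0.0582, 0.0863 and 0.0959 without knockout replicates 1, 2 and 3. That of Gm37844 was 0.0606 without knockout replicate 2.

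Of the 5 members with the highest mean, 1 fell and the others did not pass. AC160637.1, which shares exon bases with the pyruvate kinase gene Pkm, had 954.7, 1279.9, 985.9 and 1381.9 in controls and 524.2, 530.7 and 719.1 in knockouts, without overlap. It fell by 0.96 (limma adjusted p = 0.00509), beside -0.25 for Pkm. Its difference from Pkm was -0.71 and did not pass (limma on the pair, adjusted p = 0.0534). In the other 4 the groups overlapped. Gm43181, in the iron-sensing ligase gene Fbxl5, had 353 ± 48.2 (SD, n = 4) and 434 ± 61.6 (SD, n = 3). Gm37691, in the laminin gene Lamb3, had 553.5, 330.7, 215.1 and 341.1 in controls and 360.0, 366.3 and 337.0 in knockouts. Gm44250, which begins 366 bases past the end of Pon3, had 324 ± 22.2 and 256 ± 93.2. Peg13, a known imprinted non-coding RNA in an intron of Trappc9, had 266.1, 244.6, 300.9 and 306.0 in controls and 262.6, 244.2 and 282.8 in knockouts, a fold change of -0.08 (SE 0.11, adjusted p = 0.607).

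Among the sense_intronic members, 4 of the 8 with the highest mean fell. Gm42664, in Ptbp2, had 69.1, 102.7, 111.5 and 102.8 in controls and 19.3, 23.1 and 51.5 in knockouts, and every knockout was below every control. It fell by 1.70 (limma adjusted p = 0.00828) and Ptbp2 by 0.90, so that the difference from the host was -0.80 (adjusted p = 0.0424). Gm37963 in Usp4 fell by 0.95, Gm42659 in Capza1 by 0.92 and AC173482.1 in Ngly1 by 1.43. The call of AC173482.1 (adjusted p = 0.0275) was lost without control replicate 2, 3 or 4 or knockout replicate 2 (0.0702, 0.0602, 0.0596 and 0.0526), and that of Gm42659 (0.0154) without knockout replicate 2 (0.0568). Gm17491 (-0.42), Gm43328 (-0.37), Gm38190 (-0.74) and Peg13 did not pass. The difference of Gm38190 from its host Tiprl, which rose by 0.29, did pass, at -1.03 (adjusted p = 0.0243).

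The hexamer search split the members. AATAAA or ATTAAA (transcript strand only) was found in the last 50 bases of 84 of 236 members (35.6%) and of 32 of the 128 intronic members (25%). The share was 74.0% in protein-coding rows, 65.2% in processed transcripts, 55.3% in lincRNA, 50.7% in antisense rows and 70.4% in all rows tested. For a gene with several transcripts only the longest was searched, so its end need not be the one in use. Of the intronic members with the hexamer, as in Gm37691 and Peg13 above, 7 of 32 fell (21.9%), with a median log2 fold change of -0.64. Without it, as in the other 9 sequences shown (7 of members that fell and 2 of members that did not pass), 48 of 96 fell (50%), with a median of -1.23. Over all rows tested 11.2% of those with the hexamer and 11.4% of those without it were lower. The median difference of the intronic members from the host was -0.64 with the hexamer and -1.12 without. Other non-coding classes had lower medians without the hexamer as well: -0.11 with and -0.31 without in lincRNA, -0.17 and -0.50 in antisense rows, and -0.05 and -0.21 in processed transcripts. In protein-coding rows the medians were 0.02 and 0.04. Among intronic members that reached 10 in both groups, 4 of 19 with the hexamer and 25 of 54 without it fell, with medians of -0.45 and -0.96. The difference between intronic members with and without the hexamer was not tested, and both kinds share the same libraries.

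**Figure D5:**
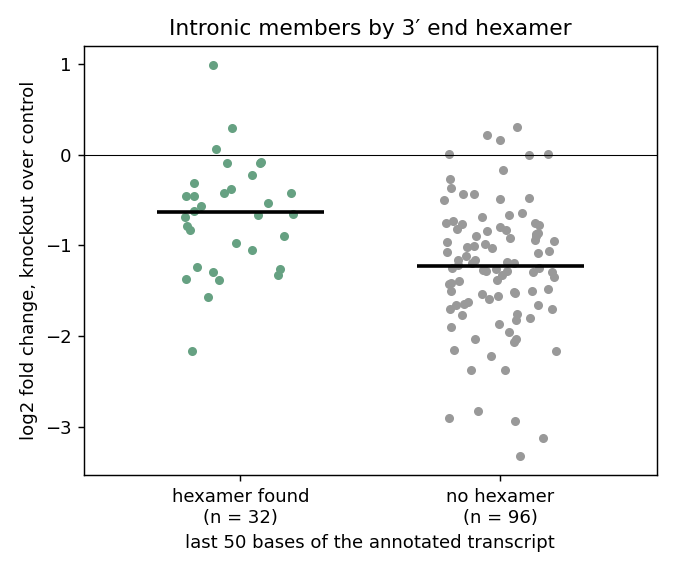
Log2 fold change (knockout over control) of each intronic member with AATAAA or ATTAAA in the last 50 annotated bases (32, left) and without (96, right). Thick bars are medians, -0.64 with the hexamer and -1.23 without, and the clouds overlap.

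Genes whose products handle such RNAs were examined as lists. Of 18 tested genes of nuclear RNA surveillance, the exosome and its adaptors that degrade intronic and unstable transcripts, 2 fell (Zcchc7 by 0.61 and Zfc3h1 by 0.48 on the log2 scale) and 2 rose (Exosc3 by 0.39 and Exosc4 by 0.40), with a median of 0.00. Of 19 cleavage and polyadenylation genes, Rbbp6 fell by 0.32 and Clp1 rose by 0.39 (median 0.03). Of 24 core spliceosome genes 1 passed, Snrpb, which rose by 0.34 (median 0.06). The median over all rows was 0.01, and with 11.3% of all rows lower and 10.4% higher these counts are no result about the lists.

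A list drawn up for nuclear-retained long RNAs had 6 tested genes, not all of them confined to the nucleus. Of these, 3 fell and 2 rose, with a median of -0.30, where 11.3% of all rows were lower and 10.4% higher. Malat1, a nuclear speckle RNA, had 9701, 10365, 10148 and 14556 in controls and 4515, 5158 and 5372 in knockouts, so all knockouts were below all controls, and it fell by 1.14 (limma adjusted p = 0.00162). Kcnq1ot1, an unspliced imprinted antisense RNA, had 106.6, 259.3, 249.6 and 201.9 against 25.4, 41.3 and 63.2 and fell by 2.23. Neat1, the scaffold of paraspeckles, fell by 0.86. Gas5 and Snhg1, spliced hosts of small nucleolar RNAs that also reach the cytoplasm, rose by 0.51 and 0.31. This list was chosen with earlier results of these data known and is no independent support.

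At the minimum itself, the members just inside were Gm43654 (mean 10.02), Gm43054 (10.03) and Gm38366 (10.07), and the rows just outside were AC159244.3 (9.97), B130021K23Rik (9.95) and Gm43375 (9.95). The members of this level rest on few reads: Gm43654 in Ap1ar had 10.2, 13.7, 24.8 and 13.8 in controls and 3.0, 2.9 and 1.8 in knockouts, where 3 reads are 2.71 to 3.04 normalized counts.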

How the data were processed

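The deposited table holds, for each library, a signal column of normalized counts, that is, HTSeq reads scaled by the library's size factor. Per the file headers, the authors' log2 fold change and its standard error, a test statistic (a score), and p-values before and after adjustment follow in the same table. The submitters' processing notes name cutadapt 1.15, STAR 2.5.3a, HTSeq, DESeq2 and the build GRCm38 (mm10). Annotation, counting mode and strand setting were not given in these sources. The labels' protocols name Trizol extraction and a KAPA mRNA library kit.

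Each deposited column was a whole multiple of 1 step (100% of values within 0.01), so that whole reads were recovered from it. The main test was limma 3.58.1 (R 4.3.3; eBayes with trend) on log2(normalized count + 1) for 12963 rows with a mean of at least 10, with Benjamini-Hochberg adjustment and a threshold of 0.05. Fold changes on this scale understate those of low rows. Run on the recovered reads, edgeR 4.0.16 (quasi-likelihood) called 1497 rows lower and 1365 higher, of them 85 and 6 members. DESeq2 1.42.0 called 1611 and 1414, of them 96 and 5 members. Pairs of a row and its host, the same-strand coding gene that holds at least 50% of it, were tested by limma without trend on the log2 difference. Both fits were run on simulated data that drew each row independently, so shifts shared by the rows of a library were not covered.

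Places and sequences came from GENCODE M21 (GRCm38), which held 99.84% of the identifiers. Libraries of a group differed by a chi-square per row of 8.51 to 35.5, so none was a copy. Named members are, by rule, up to 12 per direction with the smallest p that passed the threshold, had a log2 fold change of 1 or more in size and groups without overlap, the 5 with the highest mean, 8 sense_intronic members by mean, 3 on each side of the minimum, 6 pairs per direction by p (1 is not reported here), and up to 2 genes per direction of each list. Members of hosts with several members were named after their values were seen. The members, lists and tests were chosen with earlier results of these data known. Alternatives were other scalings, pseudocounts, minimums, tools, hosts on either strand, a replicate block and leaving out libraries.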

Additional observations from a re-analysis of the deposited data

Results flagged for a closer look

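In 2 sense_intronic members control replicate 1 stood apart from the other controls. Gm43328, in Rap1a, had a normalized count of 36.56 in that library and 69.03 to 75.34 in the other 3. Gm42659, in Capza1, had 43.67 there and 68.14 to 72.41 in the other 3. The gap to the nearest control was 0.837 and 0.852 of the range of the group, above the value that Dixon's test allows for 4 samples at 95%. Chance alone flags about 1 in 20 such groups, and 43 groups of controls were looked at, of members and host genes. Control replicate 1 also had the smallest share of reads in the members among the controls (0.0769%).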

How the results depend on the processing

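With other scalings, pseudocounts, tools or no minimum in the fit, 78 to 96 members were called lower and 5 or 6 higher, and no scaling moved the median of all rows by more than 0.1. With a minimum of 20, 49 of the 120 members left were lower and 3 higher, and 50 pairs were lower. Leaving out single libraries gave 43 to 94 lower members, 2 to 5 higher, medians of -1.09 to -0.77, 59 to 99 lower pairs, 0 to 1 higher pairs and a difference in summed share of -0.0416 to -0.0303 percentage points. Without both control replicates 1 and 4, 51 members were lower and 3 higher. With hosts on either strand 1 pair was higher and 101 lower. The replicate numbers did not pair the libraries, since deviations of same-numbered libraries correlated at -0.23, -0.03 and -0.19 by the titles and at -0.08, -0.29 and 0.08 by the column names. With the replicate block by the number in the titles, 30 members were lower and 1 higher (382 and 424 of all rows) and 83 pairs lower, and with the number in the column names, an alternative chosen after seeing the data, 55 and 1. Of the alternatives of single named members and pairs, 692 kept direction and call, 39 kept direction and lost the call, and 3 changed sign. These were Gm37691, at 0.06, which became -0.0269 with edgeR and -0.0292 with DESeq2 and ranged from -0.16 to 0.29 when single libraries were left out (below 0 without control replicate 3), and the cause was not tested. Low reads limit members near the minimum of 10.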
